A study of Mus musculus with 6 samples.

Results

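The genes described here are the 4 mouse Notch receptors (Notch1 to Notch4), 4 of their canonical ligands (Dll1, Dll4, Jag1 and Jag2) and 2 transcription factor genes that Notch signalling switches on (Hes1 and Hey1). They were chosen by gene name, and all 10 are on the array, with 13 of its 39429 probes, among 30486 genes or unnamed transcripts. RNA came from anterior pituitaries of female mice, from the side population, which are cells that pump out Hoechst dye, sorted by flow cytometry without those of highest Sca1 level and regarded by the submitters as the fraction that holds the stem cells. The 6 one-colour Agilent arrays cover GHCre/iDTR mice after 10 days of diphtheria toxin (1 array) and after 3 days (2 arrays), and -/iDTR control mice after 10 days (1 array) and after 3 days (2 arrays).

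The iDTR allele is a diphtheria toxin receptor that Cre switches on, and GHCre is a Cre driver of growth hormone cells, so the toxin targets those cells in GHCre/iDTR mice, called GHCre below. Controls carry iDTR without Cre, and both genotypes received the toxin, 2 doses a day of 4 ng per g of body weight. Ages and strain backgrounds are not given in the sources used here. The free-text descriptions go against the titles for both 10 day arrays and for replicate 2 of the 3 day controls. Titles, which match the genotype and treatment fields, set the groups, so every 10 day value and the 3 day control means rest on them. A sort typically started from 25000 to 50000 cells, with an RNA input to amplification of 1 ng.

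Between 53.78% and 65.74% of probes were well above background on an array, and array pairs correlated at 0.895 to 0.938 over all probes. Of the transcripts that check the sorted fraction, Abcg2, a Hoechst efflux pump, was above background on all 6 arrays, and Sox2, a pituitary stem cell factor, on 0. Gh, the growth hormone transcript, had log2 levels of 2.21 in the GHCre array and 7.86 in the control array after 10 days. After 3 days it had 5.46 and 2.20 in the GHCre arrays, against 5.69 and 3.65 in the controls, so the genotypes overlapped. Every array also had a bright signal for the prolactin transcript Prl, at a log2 level of at least 10.35.

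Notch receptors are single-pass membrane proteins that are switched on by Delta-like and Jagged ligands on a neighbouring cell. Binding allows ADAM proteases and then gamma-secretase to cut the receptor, and the freed intracellular domain joins the DNA-binding protein RBPJ and a Mastermind coactivator to switch on genes such as Hes1 and Hey1. HES and HEY proteins are repressors that hold back differentiation genes. In the pituitary, Notch signalling and HES1 are known for maintaining progenitors during development. Notch4 and Dll4 are best known in endothelium, and Notch3 in the mural cells around vessels.

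The second oligonucleotides of Notch1 and Notch2 are shown because each gene has a pair of probes that read different parts of its transcript, with like signs after 3 days for Notch1 and opposite signs for Notch2. Both printed probes lie in the part of the transcript that codes for the intracellular domain, 60 bases each in the sense of the transcript. Their mm9 positions are chr2:26319440-26319499 on the minus strand for Notch1 and chr3:97951233-97951292 on the plus strand for Notch2.
Notch1 intracellular probe: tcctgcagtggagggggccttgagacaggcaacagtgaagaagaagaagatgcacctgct
Notch2 intracellular probe: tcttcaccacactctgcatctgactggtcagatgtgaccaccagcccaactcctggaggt
The other probes of these genes start 4810 bases away for Notch1 and 2681 bases away for Notch2 in the genome, at chr2:26314630-26314689 and chr3:97953914-97953973.

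Promoters are shown for Notch2 and Jag1, which were above background on every array and hold the letters CACGCG, a site of the kind that HES and HEY repressors bind. The windows are the 250 bases before the start site in RefSeq's GRCm38.p6 annotation, with matches on either strand in capitals. They lie at chr3:98013288-98013537 on the plus strand for Notch2 and chr2:137116521-137116770 on the minus strand for Jag1.
Notch2 promoter: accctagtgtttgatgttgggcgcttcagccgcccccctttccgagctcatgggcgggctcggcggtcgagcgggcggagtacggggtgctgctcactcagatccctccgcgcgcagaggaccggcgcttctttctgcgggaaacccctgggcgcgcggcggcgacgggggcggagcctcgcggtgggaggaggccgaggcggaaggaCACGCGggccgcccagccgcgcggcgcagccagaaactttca
Jag1 promoter: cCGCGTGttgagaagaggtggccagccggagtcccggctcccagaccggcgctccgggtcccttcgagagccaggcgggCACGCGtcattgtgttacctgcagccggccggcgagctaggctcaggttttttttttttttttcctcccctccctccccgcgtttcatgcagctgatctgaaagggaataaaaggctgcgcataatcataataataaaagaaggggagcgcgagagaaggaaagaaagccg
The Notch2 match starts 42 bases before the start site. Jag1 has 2 matches, 171 bases before the start on the gene's strand and 249 bases before it on the opposite strand. The latter therefore appears as CGCGTG in the printed gene strand. Of the 8 genes with a window in the RefSeq table, 4 held CACGCG (Notch2, Dll1, Dll4 and Jag1), as did 7.62% of all 32851 windows and 24.0% of windows whose GC content was at or above the 65.6% median of these genes' windows. TGGGAA, the core of the RBPJ site, was in 0 of their 9 windows and in 21.6% of all windows. CACNAG, the N box, was in 4 of these genes and in 36.7% of all windows. Both strands were searched, CACGCG and CACNAG cannot match the same bases on the same strand, and a match or its lack is a description of these letters only.

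After 3 days, 8 of the 10 genes lay above the control mean in the GHCre side population and 2, Notch4 and Jag2, below it. The median log2 difference was 0.60, against -0.04 over all 21101 genes or unnamed transcripts tested, of which 48% had a difference above 0. None of the 10 passed the limma test at an adjusted p of 0.05, and neither did any other transcript (0% of 21101). At an unadjusted p under 0.05 the count was 1 of 10, Notch4, against 6.59% of all transcripts. The GHCre arrays lay wholly above or wholly below the control arrays for 6 of the 10 genes, against 37.9% of all transcripts. They were above for 4 genes (16.6% of all transcripts) and below for 2 (21.3% of all transcripts). Both genes below, Notch4 and Jag2, had 3 of their 4 readings not above background, so those readings have no firm order. Each level given here is the log2 of a probe's signal over the 75th percentile signal of its array, and levels are set side by side only within a probe, and differences are GHCre minus control with the standard error (SE) of the fit.

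**Figure D1:**
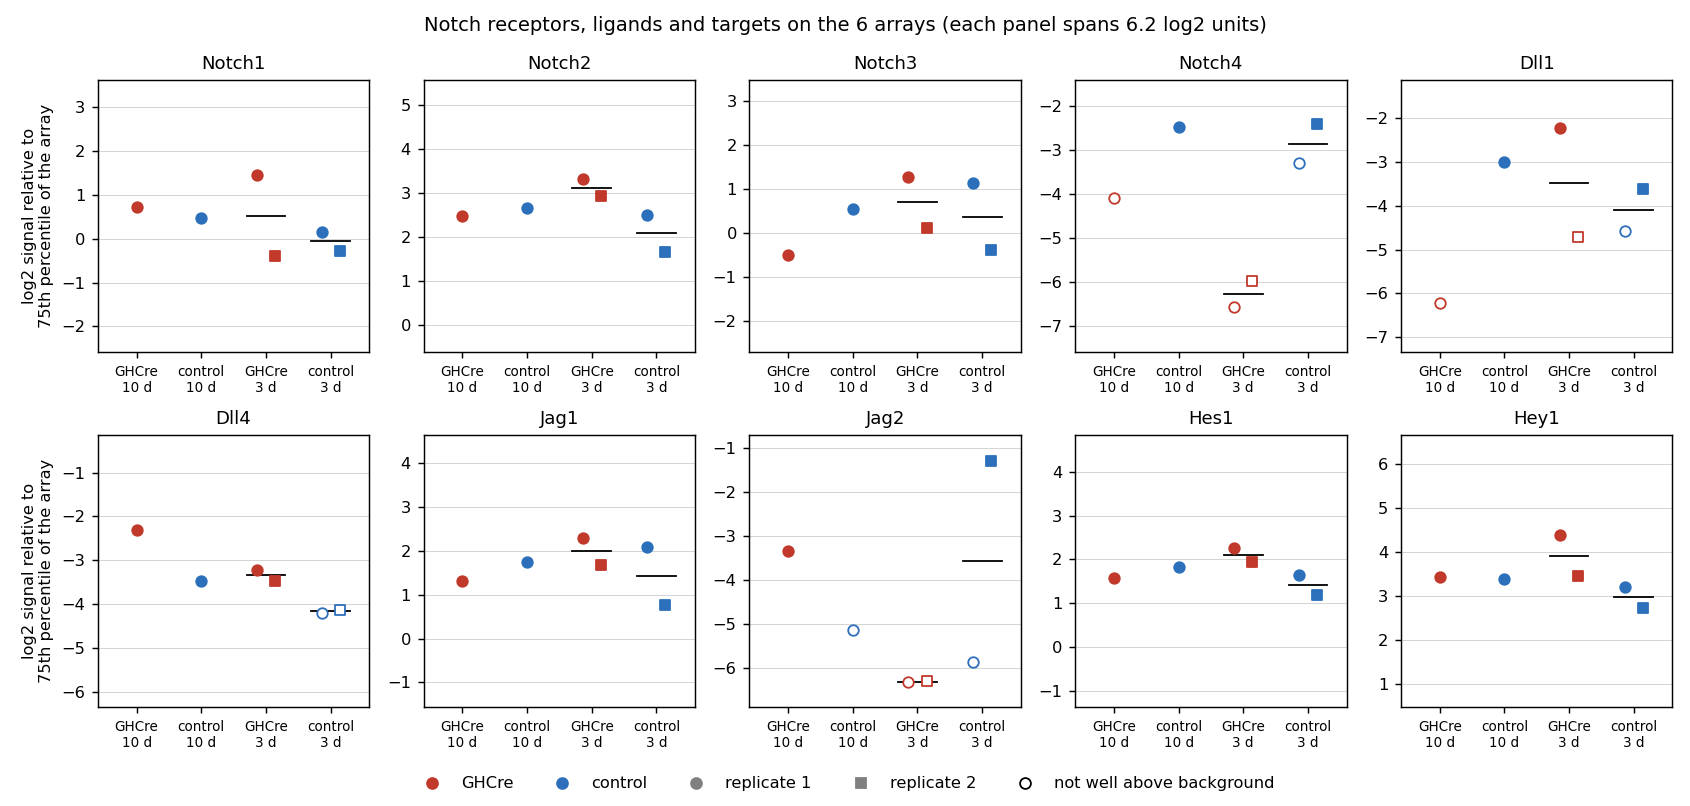
Level of each gene on each array, as log2 signal relative to the 75th percentile of the array, by genotype and days of toxin; black bars are means of 2 arrays and open symbols are signals not well above background. Notch2, Dll4, Hes1 and Hey1 have both 3 day GHCre arrays above both 3 day controls, and the readings of Notch4 and Jag2 lie below, with 3 of 4 not above background in each.

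Among the 3 receptors above background on all 6 arrays, only Notch2 had 3 day groups that did not overlap, with levels of 3.32 and 2.93 in the GHCre arrays and 2.52 and 1.66 in the controls. Both GHCre arrays lay above both controls. Its difference was 1.04 ± 0.52, a 2.05-fold higher mean (adjusted p = 0.83 with limma). Slides 1 and 3 each hold 3 day arrays of both genotypes, and taken within them the difference was 0.80 and 1.28.

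The intracellular Notch2 probe printed above gave another picture. It read -1.10 and -0.87 in the GHCre arrays and 0.00 and -1.10 in the controls, so the groups overlapped. Its difference was -0.44 ± 0.57 (adjusted p = 0.918 over all probes), and within slides -1.10 and 0.22. The Notch2 difference therefore depends on which probe is read, and the mean of both probes gave 0.30.

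Notch1, a receptor on many progenitor cells, had levels of 1.44 and -0.40 in the GHCre arrays and 0.15 and -0.27 in the controls after 3 days. Replicate 1 of the GHCre group was high, and replicate 2 lay below both controls. The difference was 0.58 ± 0.77 (adjusted p = 0.906), and 1.29 and -0.13 within slides. Its intracellular probe read 0.17 and -0.69 in the GHCre arrays, against -0.47 and -2.16 in the controls, which also overlapped, with a difference of 1.06 ± 0.79 (adjusted p = 0.878).

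Notch3 (probe at chr17:32257848-32257907) had 1.29 and 0.12 in the GHCre arrays and 1.14 and -0.40 in the controls. The replicates of each genotype differed more than the genotypes did, with replicate 1 the higher in both. The difference was 0.33 ± 0.78 (adjusted p = 0.945 with limma). Within slides it was 0.15 and 0.52.

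Notch4 (probe at chr17:34725120-34725179) had the lowest p of the 10 genes. It read -6.58 and -5.98 in the 3 day GHCre arrays and -3.30 and -2.40 in the controls, and of these 4 only the second control was well above background. The GHCre readings were the lowest. The fitted difference was -3.43 ± 0.55 (unadjusted p = 0.0032, adjusted p = 0.649 with limma), and -3.29 and -3.58 within slides. Raising the GHCre readings to the dimmest signal above background put Notch4 at least 2.8-fold lower in GHCre, with the dark control counted in the control mean. Such bounds hold for the reported background correction alone, and with normexp the Notch4 difference was as small as -0.57.

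**Figure D2:**
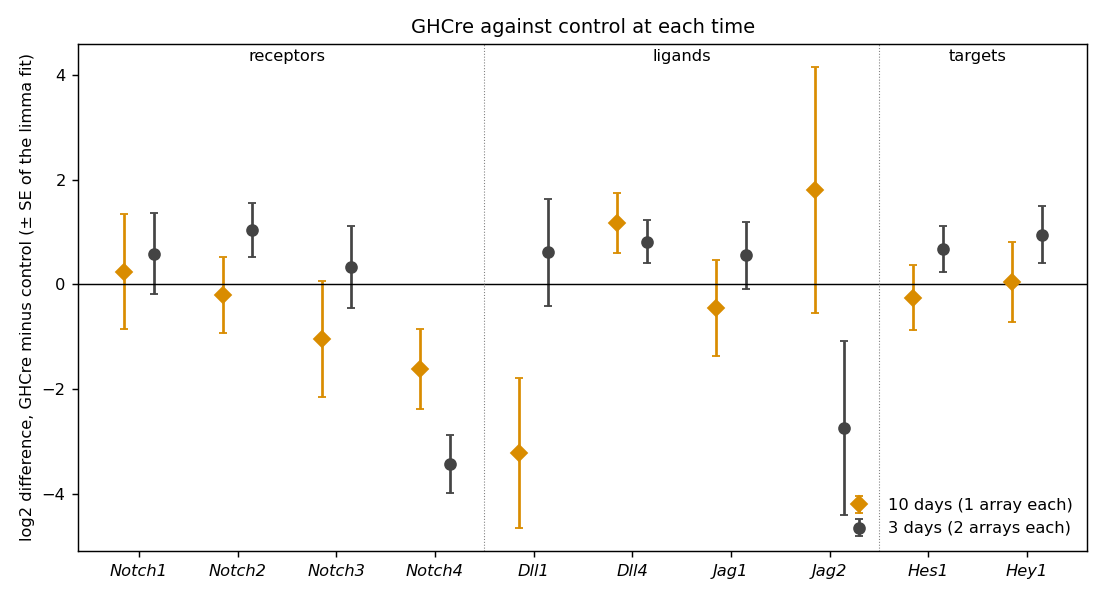
Log2 difference of GHCre minus control for each gene after 10 days (diamonds, 1 array each) and 3 days (circles, 2 arrays each), with bars of 1 SE of the limma fit. Most 3 day values lie between 0.33 and 1.04, whereas Notch4 and Jag2 lie at -3.43 and -2.74, and the SE of Jag2 is 1.66 after 3 days.

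Among the ligands, Jag1 (probe at chr2:136907433-136907492) was above background on all 6 arrays. It had 2.29 and 1.68 in the 3 day GHCre arrays and 2.09 and 0.77 in the controls. The second control was the lowest, the groups overlapped, and the difference was 0.55 ± 0.65 (adjusted p = 0.897). Within slides it was 0.20 and 0.91.

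Dll4 (probe at chr2:119160779-119160838), the ligand of sprouting vessels, had -3.21 and -3.47 in the GHCre arrays, both above background. The controls had -4.20 and -4.12, neither above background, so the groups did not overlap. The difference was 0.82 ± 0.41 (adjusted p = 0.83). With normexp and the same scaling it was -0.08, so the direction rests on the background correction.

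Jag2 (probe at chr12:114146887-114146946) had -6.33 and -6.30 in the GHCre arrays, neither above background. The controls had -5.87 and -1.28, and only the second was above background. The difference of -2.74 ± 1.66 (adjusted p = 0.861) rests on that 1 control array, since it was -0.45 without it.

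Dll1 (10 spots of a probe at chr17:15504623-15504682) read -2.24 and -4.72 in the GHCre arrays and -4.57 and -3.61 in the controls. An array of each genotype was above background, and the difference was 0.61 ± 1.02 (adjusted p = 0.921), and 2.33 and -1.11 within slides. A second Dll1 probe, which starts 9103 bases away, had a like difference of 0.61 ± 0.80, with 1 of these 4 readings above background.

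**Figure D3:**
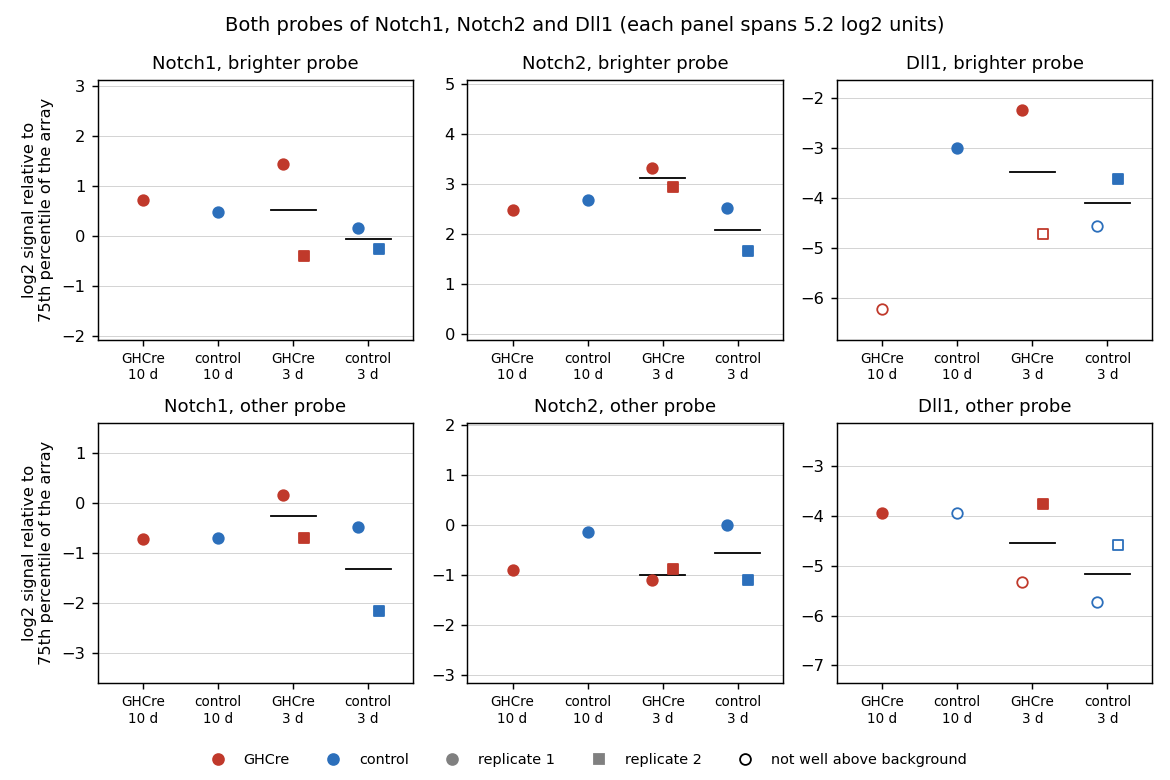
Levels of both probes of Notch1, Notch2 and Dll1, as log2 signal relative to the 75th percentile of the array, by genotype and days of toxin; open symbols are not well above background. The brighter Notch2 probe separates the 3 day groups by 1.04, and the other differs by -0.44 with overlapping replicates.

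Both target genes were higher in the mean of the 3 day GHCre arrays, without passing the test. Hes1 (probe at chr16:30067820-30067879), a repressor of differentiation genes, had 2.26 and 1.95 in the GHCre arrays and 1.65 and 1.20 in the controls. Both GHCre arrays lay above both controls. The difference was 0.68 ± 0.44, 1.61-fold (adjusted p = 0.862), and 0.62 and 0.75 within slides.

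Hey1 (probe at chr3:8663432-8663491), a related repressor, had 4.38 and 3.44 in the GHCre arrays and 3.19 and 2.73 in the controls. The groups did not overlap, and the difference was 0.95 ± 0.54, 1.93-fold (adjusted p = 0.857), with 1.19 and 0.71 within slides. Hes1 and Hey1 kept a difference above 0 under all 14 alternative settings tried. So did Notch2, at its lowest 0.30 with the mean of both probes. No setting read its intracellular probe alone, which gave -0.44 ± 0.57. Notch4 and Jag2 stayed below 0 under the 13 that held them. The range was 0.46 to 0.91 for Hes1 and 0.48 to 1.42 for Hey1, set by leaving out 1 array. Leaving out 1 array cannot reverse groups that do not overlap. The filters, intensity trend and blocks named in the closing section leave the 3 day difference as it is, so most of these outcomes were fixed.

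Markers of 7 cell types were read beside these genes, and their sums are given as multiples of the 75th percentile signal. A sum is weighted to its brightest markers and is no count of cells. Of the 12 mural and fibroblast markers, 11 lay above the control mean after 3 days, with a median difference of 0.78, and their summed signal was 287 and 231 times in the GHCre arrays, against 209 and 145 times in the controls. Of the 16 endothelial markers, 10 were bright enough to test and 8 of these lay above 0, with a median of 0.48 and sums of 8.58 and 6.55 times in the GHCre arrays, against 5.77 and 5.11 times in the controls. The endothelial markers Tie1 and Sox17 were not above background on any array. At an unadjusted p under 0.05 stood 1 of 12 mural markers (Des, 2.05 ± 0.49) and 1 of 10 endothelial markers (Esam, 2.85 ± 0.60, its controls not above background), against 6.59% of all transcripts. Folliculostellate markers summed to 65.2 and 42.5 times in the GHCre arrays, against 35.2 and 27.1 times in the controls, with 5 of 8 above 0. At that unadjusted level 1 of the 8 was higher (Slc1a3, 2.47 ± 0.52, its controls not above background). Another 1 was lower (Fabp7, -3.03 ± 1.08, its GHCre arrays not above background). Lymphocyte markers summed to 16.7 and 14.8 times in the GHCre arrays, against 9.5 and 8.79 times in the controls (4 of 6 above 0). Of these 6, 1 had an unadjusted p under 0.05 and was lower (Cd8a, -2.35 ± 0.82, with -0.21 ± 1.06 by its second probe).

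In the other direction, hormone cell markers summed to 1730 and 1500 times in the GHCre arrays, against 2480 and 2400 times in the controls (3 of 11 above 0). That sum is mostly Prl, with log2 levels of 10.59 and 10.35 in the GHCre arrays and 11.08 and 11.06 in the controls. Macrophage and myeloid markers summed to 149 and 152 times in the GHCre arrays, against 226 and 190 times in the controls (4 of 9 above 0). Most of that sum is the brightest Itgam probe, with log2 levels of 6.999 and 7.026 in the GHCre arrays and 7.594 and 7.316 in the controls. The other Itgam probes read at most 2.591 on the 3 day arrays. Their differences were -0.495 ± 0.964 and -0.955 ± 1.901, so the myeloid sum rests mainly on that brightest probe. Pituitary stem cell markers overlapped, at 20.4 and 15.9 times in the GHCre arrays and 22.8 and 17.7 times in the controls, with 6 of 8 above 0. At an unadjusted p under 0.05 stood 1 of 9 myeloid markers (Cd14, 1.92 ± 0.55) and 0 of 11 hormone markers. Of the 8 stem cell markers 1 did (Krt8, 1.63 ± 0.55, with 0.36 ± 0.81 by its second probe), against 6.59% of all transcripts. The part of these cell types in the Notch gene values was not tested, and in bulk RNA fewer cells of a type and less RNA per cell cannot be told apart.

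The 3 day median rested on single arrays. With GHCre replicate 1 left out it was -0.001, and with GHCre replicate 2 left out 0.93. With control replicate 1 left out it was 0.85, and with control replicate 2 left out 0.41. The p-values measure only the spread between these samples, and the 4 arrays of 3 days supply all 2 residual degrees of freedom.

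After 10 days, 4 of the 10 genes lay above the control array in the GHCre array, with a median difference of -0.23, against 0.00 over all transcripts, of which 49.9% lay above 0. None passed the limma test, as for all transcripts (0%), and 0 of 10 had an unadjusted p under 0.05, against 3.02% overall. Each genotype has 1 array at this time, and its SE assumes that it varies like the 3 day arrays. No other array shares the slide of the control array, where slide and group cannot be told apart.

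Hes1, Hey1 and the brighter Notch2 probe, which had separated the genotypes after 3 days, lay closer together after 10. Hes1 had 1.57 in the GHCre array and 1.83 in the control array, a difference of -0.26 ± 0.62. Hey1 had 3.44 in GHCre and 3.39 in control (0.04 ± 0.77). Notch2 had 2.47 in GHCre and 2.67 in control (-0.20 ± 0.73). All of these differences were smaller than their SE.

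The intracellular Notch2 probe was at -0.90 in GHCre and -0.13 in control. Jag1 had 1.30 in GHCre and 1.75 in control (-0.45 ± 0.92), and Notch1 had 0.72 in GHCre and 0.48 in control (0.24 ± 1.10). Notch3 had -0.50 in the GHCre array, its lowest level on the 6 arrays, and 0.54 in the control (-1.04 ± 1.11). These differences, too, were smaller than their SE.

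The dim receptors and ligands had wider gaps. Notch4 read -4.09 in GHCre, not above background, and -2.48 in control, at least 3.07-fold lower in GHCre (adjusted p = 1 with limma). Dll1 read -6.22 in GHCre, not above background, and -3.00 in control, at least 2.4-fold lower in GHCre. Its second probe read -3.95 in both arrays, with a difference of 0.005 ± 1.13, so the pair of Dll1 probes disagree.

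Dll4 read -2.30 in GHCre and -3.48 in control, both above background (1.17 ± 0.57, adjusted p = 1). Jag2 read -3.33 in GHCre and -5.14 in control, with only GHCre above background, at least 1.52-fold higher in GHCre. With normexp the 10 day differences of Notch4, Dll1 and Jag2 were as small as -0.52, -0.49 and 0.40, under these bounds. Among these dim genes, the fitted differences of Notch4 (lower in GHCre) and Dll4 (higher) had the same sign at both times. No GHCre array read Notch4 above background, and with normexp the 3 day Dll4 difference was -0.08. Of the brighter genes, Notch1 (0.58 after 3 days and 0.24 after 10) and Hey1 (0.95 and 0.04) also kept their sign. Mural and fibroblast markers summed to 174 times the 75th percentile in GHCre and 180 times in control at 10 days, with 3 of 12 above 0. Given likewise, endothelial sums were 6.34 and 7.14 (4 of 10 above 0) and folliculostellate sums 27 and 39.3 (3 of 8). Stem cell sums were 16.2 and 23.3 (2 of 8), myeloid sums, again mostly Itgam, 174 and 193 (4 of 9), and lymphocyte sums 10.8 and 7.53 (4 of 6). Hormone cell markers summed to 2060 and 1950 times, mostly Prl. Only 4 of 11 were above 0, with a median difference of -3.28.

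The change of the genotype effect between the times was tested as its own term, 10 days minus 3 days. The effect was smaller or more negative at 10 days for 7 of the 10 genes, with a median of -0.93, against 0.03 over all transcripts, of which 51.4% were above 0. None passed the limma test (0% of all transcripts), and 0 of 10 had an unadjusted p under 0.05, against 3.97% overall. The term was -0.94 ± 0.76 for Hes1, -0.91 ± 0.94 for Hey1 and -1.24 ± 0.89 for Notch2 by its brighter probe. By the intracellular Notch2 probe it was -0.326 ± 0.995. It was above 0 for Jag2 (4.54 ± 2.88), Notch4 (1.82 ± 0.95) and Dll4 (0.35 ± 0.70). A difference between the 3 day and 10 day effects was therefore not established for any of these genes, and both use their own control arrays.

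Within GHCre mice, 10 against 3 days, 6 of the 10 genes were lower at 10 days and the median was -0.50, against 0.12 over all transcripts, of which 57.3% were above 0. Notch4 had an unadjusted p of 0.0304, with a fitted difference of 2.19 ± 0.67 (adjusted p = 1), although no GHCre array read it above background, so no fold is given. It was 1 of 10 at that level, against 4.03% of all transcripts, and 0 of 10 passed the adjusted test (0% overall). Hes1 differed by -0.53 ± 0.54, Hey1 by -0.48 ± 0.66 and Notch2 by -0.65 ± 0.63 with its brighter probe. The intracellular Notch2 probe gave 0.09 ± 0.70.

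Within control mice, 10 against 3 days, 9 of the 10 genes were higher at 10 days, Jag2 being the exception, with a median of 0.42, against 0.09 over all transcripts, of which 55.1% were above 0. None passed the limma test (0% overall), and 0 of 10 had an unadjusted p under 0.05, against 4.05% overall. Hes1 differed by 0.41 ± 0.54, Hey1 by 0.43 ± 0.66 and Notch2 by 0.59 ± 0.63 with its brighter probe. The intracellular Notch2 probe gave 0.42 ± 0.70, the same sign as within GHCre. For the others, the opposite signs in the 2 genotypes are the same term as the change of genotype effect given before, and share its arrays.

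By mean level the order for Hes1 was 3 day GHCre (2.10), 10 day control (1.83), 10 day GHCre (1.57) and 3 day control (1.42). Every step between neighbours was smaller than the 0.45 between the 3 day control replicates. Notch2, by its brighter probe, followed the same order of groups, with 3.12, 2.67, 2.47 and 2.09 from the highest to the lowest. Each step was below the 0.86 between its control replicates. For Hey1 the order was 3 day GHCre (3.91), 10 day GHCre (3.44), 10 day control (3.39) and 3 day control (2.96), with no step above the 0.94 between its GHCre replicates. Neighbouring groups of Notch1, Notch3 and Jag1 likewise differed by less than their wider replicate gap, which was 1.84, 1.53 and 1.32. In all of these genes replicate 1 was the higher in both genotypes, so the replicate gaps include a shift that the genotypes share. Its source was not tested.

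Across the 6 arrays, the brighter Notch2 probe and Hes1 kept the same order of levels (Spearman's rho 1, Pearson's r 0.986). Pearson's r was 0.963 over the 4 arrays left without the 2 farthest from the Notch2 median. This pair was chosen after its values were seen, and the arrays share scaling and amplification. The intracellular Notch2 probe did not keep that order. It was lowest, at -1.10, on replicate 1 of the 3 day GHCre arrays, where Hes1 was highest, at 2.26. Hes1 and Hey1 had r = 0.92, which was 0.378 without the 2 farthest arrays, and Jag1 and Hes1 had 0.848 and 0.176. Notch2 and Hey1 fell likewise, from 0.91 to 0.443, whereas Notch1 rose with Hey1 (0.82 to 0.964) and with Hes1 (0.584 to 0.724). Leaving out the farthest arrays narrows the range of levels, so these changes cannot show what a relation rests on. Of 11681 genes above background on all 6 arrays, 59 had r above 0.95 with Hes1, led by Nfkbib (0.992), Rab8b (0.991) and Efemp2 (0.988). With Notch1 the count was 23, led by Bicra (0.992), Dlc1 (0.984) and Spocd1 (0.983). These are descriptions of likeness over 6 arrays.

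The rest of the pathway was described from a list of 70 genes, of which 69 are on the array and 66 were bright enough to test. After 3 days 30 lay above 0 and 36 below, with a median of -0.05, against -0.04 over all transcripts. None passed the limma test, and 5 of 66 had an unadjusted p under 0.05, against 6.59% of all transcripts.

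Genes of the nuclear complex were split, with 10 of 21 above 0 and a median of -0.07. Rbpj, the DNA-binding partner of the Notch intracellular domain, had 0.62 and 0.93 in the 3 day GHCre arrays and -1.19 and -0.87 in the controls. Both GHCre arrays lay above both controls, and the difference was 1.81 ± 0.43 (unadjusted p = 0.0129, adjusted p = 0.686 with limma). A second Rbpj probe read -1.19 and -0.89 in the GHCre arrays, against -3.63 and -0.77 in the controls, which overlapped (1.16 ± 1.10). Maml1, a Mastermind coactivator, had 2.42 and 2.48 in the GHCre arrays and 0.66 and 1.71 in the controls (1.26 ± 0.54, adjusted p = 0.799).

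Among the proteases that cut the receptor, 5 of 9 lay above 0, with a median of 0.57. Adam17, a sheddase of receptors and ligands, had -0.07 and -0.80 in the GHCre arrays and -1.95 and -4.02 in the controls (2.55 ± 0.87, adjusted p = 0.751), and its second probe gave 1.93 ± 0.55. Both probes had the GHCre arrays above the controls. The related Adam10 had 1.11 ± 0.52, and Ncstn, a gamma-secretase subunit, had 1.16 ± 0.42 (adjusted p = 0.757). Aph1b, another subunit of that enzyme, was on the other side at -2.38 ± 0.79 (adjusted p = 0.751).

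Of the other ligands, 1 of 6 lay above 0 after 3 days. Cntn1, a neural adhesion molecule that can act on Notch, had -6.85 and -4.72 in the GHCre arrays, neither above background, and -0.05 and -0.28 in the controls. It was at least 18-fold lower in GHCre (fitted difference -5.62 ± 0.85, adjusted p = 0.649 with limma) and had the lowest p of the list. Dlk1, a non-canonical ligand of the anterior pituitary, had 5.57 and 6.79 in the GHCre arrays and 6.88 and 7.46 in the controls (-0.99 ± 0.62), and Dll3 was at -0.06 ± 0.41.

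**Figure D4:**
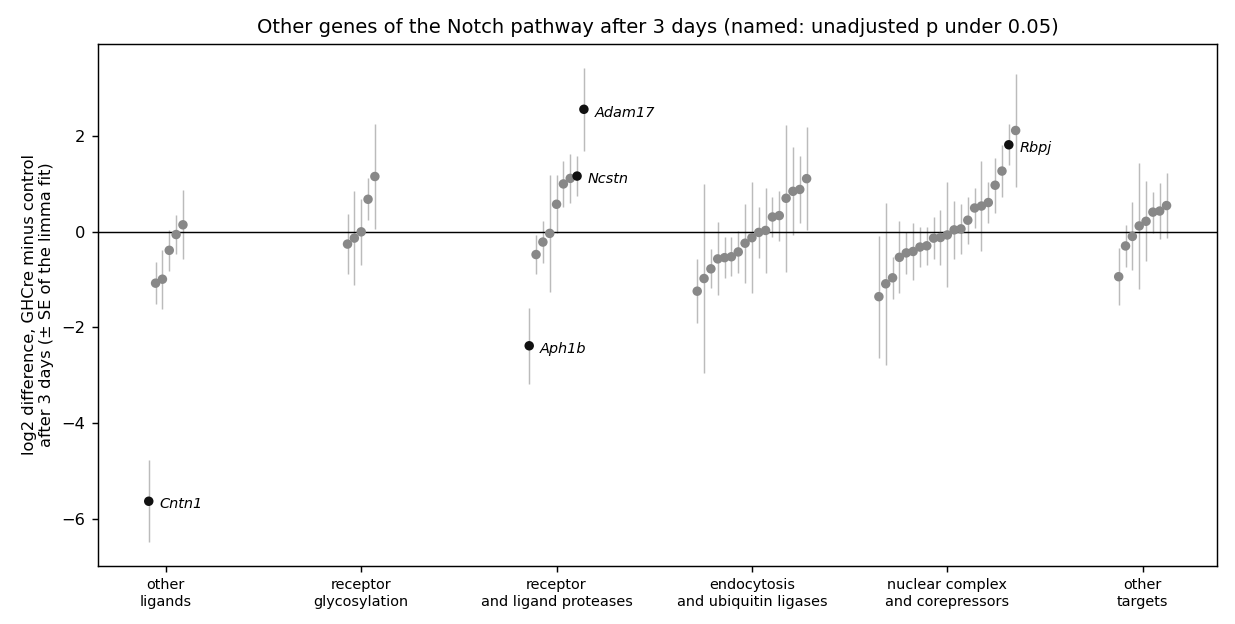
Log2 difference of GHCre minus control after 3 days for the 66 tested genes of the wider pathway, by role, with bars of 1 SE of the limma fit; black points with names had an unadjusted p under 0.05. Values spread on both sides of 0 in most roles, and Cntn1 stands lowest at -5.62.

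The other targets had 5 of 8 above 0 after 3 days. Hes5 was at 0.54 ± 0.68 and Nrarp, a feedback inhibitor of Notch, at 0.12 ± 1.32, both with overlapping groups. Heyl was at 0.41 ± 0.43, less than its SE. Its GHCre arrays, at 0.69 and 0.80, lay above its controls, at 0.11 and 0.57, as for 16.6% of all transcripts. No array read Hey2 above background. Of the Fringe enzymes, which add sugars to the receptors, Lfng was at 1.15 ± 1.10 and Mfng at -0.26 ± 0.62, and a second Mfng probe had the opposite sign (1.74 ± 1.21). Numb, an inhibitor of Notch, was at -0.24 ± 0.82, and Mib1, a ubiquitin ligase that activates ligands, at -0.02 ± 0.54.

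After 10 days 39 of the 66 lay above 0, with a median of 0.12, against 49.9% and 0.00 over all transcripts, and 0 had an unadjusted p under 0.05, against 3.02%. Heyl, a HES and HEY relative found in mural cells, had the lowest p, with -1.50 in the GHCre array and 0.11 in the control array (-1.61 ± 0.61, adjusted p = 1 with limma). Its level in the 10 day GHCre array was below that in the 3 day GHCre arrays, 0.69 and 0.80, by 2.25 ± 0.53 in the fit (unadjusted p = 0.0127, adjusted p = 1). Nrarp had -1.42 in GHCre and -4.45 in control after 10 days, with the control not above background, at least 5.74-fold higher in GHCre. It varied as widely between the 3 day controls, at -0.57 and -3.97. Cntn1 was lower in GHCre at this time as well, at -3.70, against -1.22 in control (-2.48 ± 1.20, adjusted p = 1). Within control mice, 10 against 3 days, Ncstn was higher by 1.79 ± 0.51 and Dner, another non-canonical ligand, differed by -1.72 ± 0.54 (unadjusted p = 0.0248 and 0.0328, both adjusted p = 1).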

How the data were processed

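RNA of the sorted side population was measured on 6 one-colour Agilent arrays on 3 slides. Per the file headers, the deposited processed signal is an intensity from Agilent Feature Extraction 10.7.3.1, background-subtracted, with mm9 probe positions. In the deposited series table the values are log2, and matched the quantile-normalized processed signal (r of at least 0.9999) for 38017 of 39429 probes, and was used as an alternative.

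From 43020 spots that are not controls, spots of a probe were averaged as log2 signal without flagged spots, and the log2 of each array's 75th percentile (signals of 186.15 to 298.51) was subtracted. For 32 probe values every spot was flagged and the signal was kept. Probes were named by RefSeq accession (27234) or their own symbol (3576), and a gene was read by its brightest probe. Transcripts above background on at least 2 arrays were tested (21101, of which 16190 have a symbol). No probe was saturated. The number of arrays limits the precision.

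The model, with 1 mean per group, was fitted with limma 3.58.1 in R 4.3.3, with moderated statistics (2 residual and 2.03 prior degrees of freedom) and Benjamini-Hochberg adjusted p over all transcripts, threshold 0.05. All probes were also fitted (27249 probes, 0 called). Scripts were tested on simulated data. For a bound, readings of a group that was dark on all its arrays were raised, where lower, to the dimmest signal above background on that array. The members, pathway and marker lists were chosen with earlier results of these data known. Named are all members, 14 set pathway genes (1 of them not reported here), and up to 4 pathway genes of lowest p per comparison, plus exceptions stated as such. Alternatives are given with their effect in the closing section. Same-numbered 3 day arrays shared deviations at a correlation of 0.09 over 2 pairs, taken over all probes above background on at least 2 arrays. The numbers were therefore not taken to pair them. For the probes used of Notch1, Notch2, Notch3, Jag1, Hes1 and Hey1, however, replicate 1 was the higher in both genotypes. Figures used matplotlib 3.10.9.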

Additional observations from a re-analysis of the deposited data

How the results depend on the processing

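No gene and none of the 10 Notch genes passed the adjusted threshold under any of 14 alternatives (blocks for replicate number or slide, a variance prior with an intensity trend, averaging a gene's probes, the deposited series table, tighter and looser filters on dim probes, quantile normalization, normexp at an offset of 50 scaled either way, and leaving out each 3 day array). Unadjusted counts for 3 days ran from 800 to 2301 genes, for 10 days from 445 to 1188, for the difference from 610 to 1472, within GHCre from 556 to 1436 and within controls from 577 to 1770. Of 650 values of single members, 630 kept their direction and 20 changed sign, and the cause was not tested. Part of the 630 could not have changed, so that count is no measure of stability. The filters and the intensity trend leave a fitted difference as it is. Leaving out a 3 day array cannot alter the difference between the 10 day arrays.

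For GHCre against control after 3 days, normexp with 75th percentile scaling gave -0.011 for Dll1 and -0.077 for Dll4. Leaving out 1 array there gave ranges of -0.34 to 1.50 for Notch1, -0.43 to 1.10 for Notch3, -0.63 to 1.85 for Dll1 and -0.11 to 1.21 for Jag1, and for the difference of effects -1.26 to 0.58 for Notch1. Within GHCre, 10 against 3 days, Notch1 was -0.13 with the mean of all probes and -0.72 to 1.12 leaving out 1 array. Within controls, Notch4 was -0.012 with quantile normalization and Dll4 -0.011 with normexp and 75th percentile scaling. Leaving out 1 array gave -0.073 to 0.82 for Notch4, -0.59 to 0.94 for Notch3, -0.34 to 0.98 for Jag1 and -3.85 to 0.73 for Jag2.

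With the replicate number as a block no call changed. The 3 day median of the members stayed at 0.60, which was fixed, since each 3 day group holds 1 array of each number. At 3 days, replicates 1 and 2 are also slides 1 and 3, so the slide block is the same check there. Within GHCre, 10 against 3 days, Notch1 was -0.36 with the replicate block, and within controls Notch1 was -0.027, Notch3 -0.50 and Jag1 -0.16. With the slide as a block, the 10 day comparison, the difference of effects and 10 against 3 days in controls could not be estimated, since no other array shares the slide of the 10 day control. Signals near background limit Notch4, Dll1, Dll4 and Jag2.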
